A study of Mus musculus with 16 samples.

Results

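The main effect of TMP195 was measured in mouse tumour cells by setting 8 RNA-seq libraries from animals given TMP195 against 8 from animals not given it. The 8 libraries with TMP195 were 4 of the TMP195 group, labelled as TMP195 alone, and 4 of the combination group (Combo), which had TMP195 and MYCi975 together. The 8 without it were 4 of the MYCi975 group and 4 of the Vehicle group, whose vehicle was DMSO, so all 16 libraries of the series entered the comparison. Every animal bore tumours of LLC1, a line of mouse Lewis lung carcinoma, treatment lasted 16 days in all groups, and RNA was taken from a population enriched for tumour cells. TMP195 and MYCi975 were each dosed at 50 mg/kg when given alone, whereas the dose of each within Combo, the strain, the age and the way of enrichment were not stated in the labels. Whether the 4 libraries of a group stem from 4 animals is not stated, and p-values therefore reflect only how much the libraries vary, which can be technical. Of the 24334 genes in the deposited table, 15715 had a value at least 1 above the lowest value of the table, 4.84, in at least 4 of the 16 libraries and were tested.

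Class IIa histone deacetylases (HDACs), encoded by Hdac4, Hdac5, Hdac7 and Hdac9, have little deacetylase activity of their own on histones and act largely as signal-dependent corepressors. They bind transcription factors of the MEF2 family and recruit the NCoR complex with its active class I deacetylase. TMP195 occupies the acetyl-lysine pocket of class IIa HDACs, and in mouse breast tumours it is known for acting on macrophages. MYCi975 is a small molecule directed at MYC, the transcription factor that drives ribosome production, nucleotide synthesis and cell division in many tumours.

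The values are variance-stabilised and close to a log2 scale, and a difference of 1 is close to a 2-fold change in well-expressed genes and understates the fold of weak ones. The depth of the libraries is unknown. Mesenchymal genes were high in every library, with Vim between 16.69 and 17.54, Fn1 between 16.88 and 17.85 and the collagen gene Col3a1 between 15.92 and 17.15. Which cells held these transcripts was not tested. The simple keratins Krt8 and Krt18 had medians of 10.62 and 10.86, and the epithelial genes Epcam and Cdh1 had medians of 4.84 and 5.16, at or near the lowest value. Markers of other cells were also present, with Ptprc, which encodes the leukocyte protein CD45, between 5.81 and 8.95 and the endothelial gene Pecam1 at a median of 8.55. Replicate 4 of the TMP195, Vehicle and MYCi975 groups scored 32.0, 33.2 and 26.6 on the first principal component, while the other 13 libraries lay at or below 5.90. In bulk RNA, a change in the number of cells of a type and a change in the RNA of each cell cannot be told apart.

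No gene passed for the TMP195 main effect at a Benjamini-Hochberg adjusted limma p under 0.05, a share of 0 (0%) of 15715, and the smallest adjusted p was 0.999. At an unadjusted limma p under 0.05 there were 688 genes (4.38%), of which 295 (1.88%) lay above and 393 (2.50%) below in the libraries with TMP195. A flat distribution of p-values would place 785.75 genes in that bin, and the count lay below that. The order was the other way round in 4 of 26 alternatives on the same genes, with 922 genes under the replicate block, 833 with array weights, 1000 without MYCi975 replicate 1 and 822 without TMP195 replicate 4. The median difference over all tested genes was -0.0041, and 51.4% of genes lay below 0. The median standard error (SE) was 0.111 and the median 95% confidence interval reached 0.233 to either side. That interval holds for 1 gene without adjustment, and a call at the adjusted threshold asked for more. Abca1, with a difference of 0.60 (SE 0.15), had a limma adjusted p of 0.999. Only 103 genes (0.655%) differed by more than 0.5 in either direction.

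**Figure D1:**
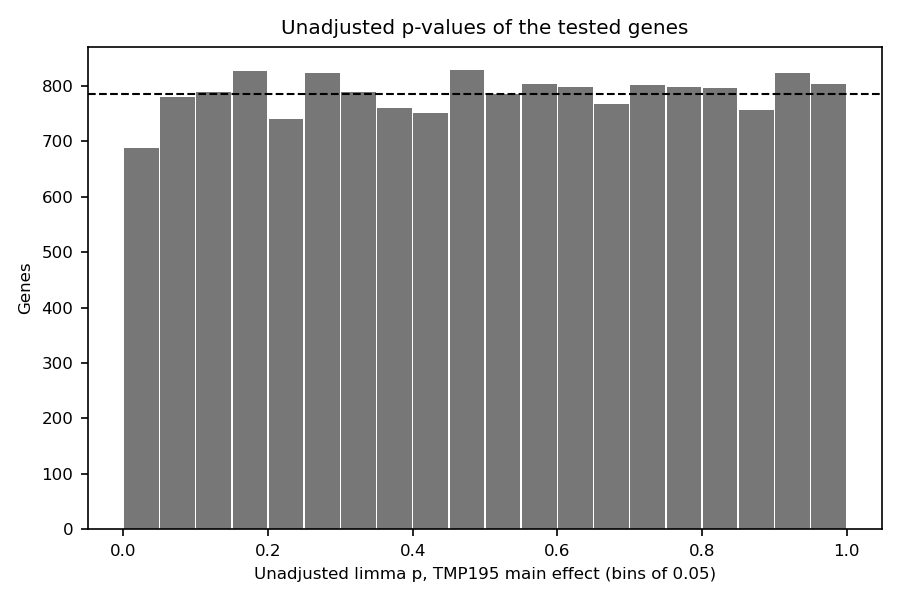
Number of genes (vertical axis) in each bin of 0.05 of the unadjusted limma p for the TMP195 main effect (horizontal axis), over 15715 genes; the dashed line marks the 785.75 genes per bin of a flat distribution. The first bin holds 688 genes, below the line.

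The comparison averages 2 differences that share no library, TMP195 minus Vehicle without MYCi975 and Combo minus MYCi975 with it, and these were read side by side. Across the 15715 genes they had a Pearson r of 0.0058 and a Spearman rho of 0.041, and 52.1% of genes had the same sign, as a description over genes that are not independent of each other. For TMP195 minus Vehicle no gene was called and 767 (4.88%) had an unadjusted limma p under 0.05. For Combo minus MYCi975 no gene was called and 365 (2.32%) had an unadjusted limma p under 0.05. All 4 TMP195 libraries lay above all 4 Vehicle libraries for 173 genes (1.10%) and below them for 220 (1.40%). All 4 Combo libraries lay above all 4 MYCi975 libraries for 140 genes (0.891%) and below them for 128 (0.815%). No gene had all 8 libraries with TMP195 on 1 side of all 8 without it. Gm11263, a predicted gene singled out after its values were seen, was the 1 gene that lay above without overlap in both pairs of groups, no gene lay below in both, and Tubgcp2 and P2rx4 separated in opposite directions.

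**Figure D2:**
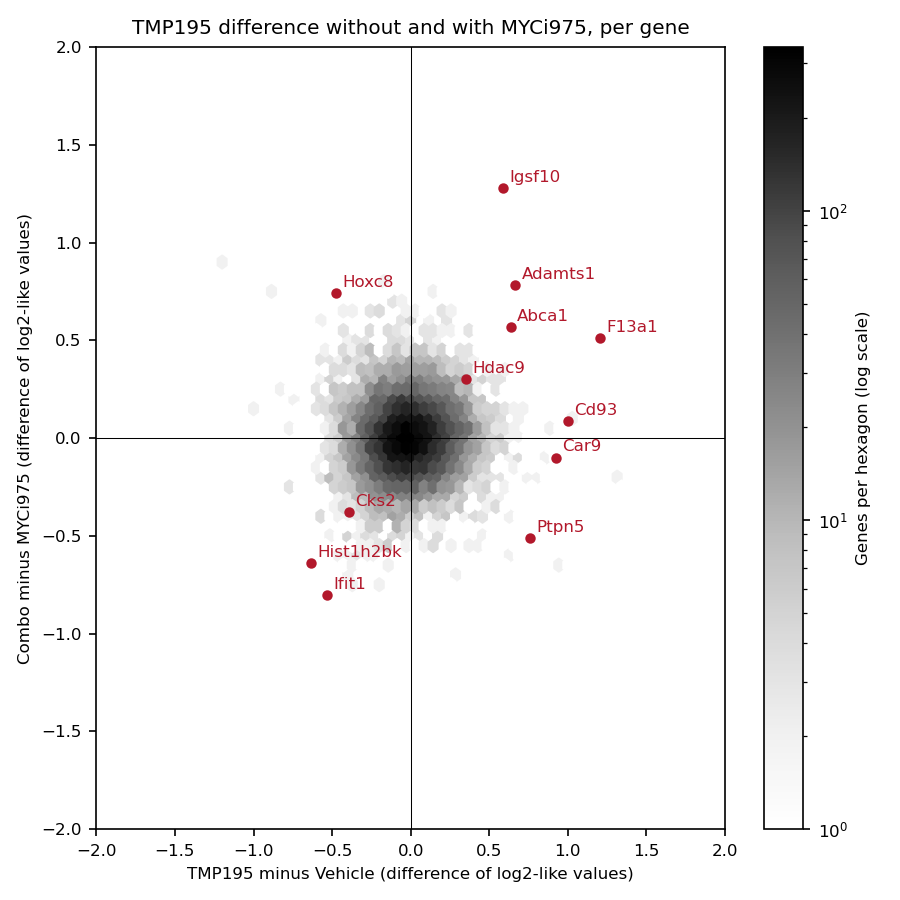
TMP195 minus Vehicle (horizontal axis) against Combo minus MYCi975 (vertical axis) for each tested gene, both as differences of log2-like values; grey hexagons give the number of genes on a log scale and red points mark genes named in the text, with 4 genes outside the axes. The cloud is round, with a Pearson r of 0.0058, and Abca1 and Hist1h2bk are among the named genes that lie away from 0 on both axes.

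Among the drug targets, Hdac9 (gene ENSMUSG00000004698.12) stood apart from the other class IIa genes. Its values were 6.60, 6.36, 6.38 and 6.30 in the 4 TMP195 libraries against 6.15, 6.02, 6.05 and 6.02 in the 4 Vehicle libraries, and 6.45, 5.86, 6.18 and 6.52 in the 4 Combo libraries against 6.07, 5.97, 5.94 and 5.82 in the 4 MYCi975 libraries. The TMP195 and Vehicle groups did not overlap, while Combo replicate 2 lay within the MYCi975 range, and 7 of the 8 libraries with TMP195 lay above the mean of their own counterpart group. The main effect was 0.33 (SE 0.10; limma adjusted p = 0.999), made of 0.35 without and 0.30 with MYCi975. Hdac9 was weakly expressed, between 5.82 and 6.60 against a lowest table value of 4.84, whereas Hdac4, Hdac5 and Hdac7 stayed at 10.16 or above. Its highest value was in TMP195 replicate 1, the library with the highest mean of leukocyte markers (8.17). The part of leukocyte RNA in the Hdac9 values was not tested. Hdac4, Hdac5 and Hdac7 differed by 0.029, 0.024 and 0.025, each with an SE between 0.087 and 0.11, and the sign of all 3 turned when single libraries were left out. The genes of MEF2 factors, whose proteins class IIa HDACs repress, differed by 0.13 for Mef2a (8 of 8 libraries above the counterpart mean, SE 0.088), -0.10 for Mef2c (SE 0.28) and -0.017 for Mef2d (SE 0.10). Mef2c had group SDs that left its interval at 0.59 to either side. Class IIa HDAC and MEF2 factor genes, as a list, had 5 of 7 tested members above 0 and a median of 0.025, which was -0.015 without MYCi975 replicate 1 and -0.001 without TMP195 replicate 2. Only 4 of 9 listed MEF2 target genes in the table passed the filter, and of these 2 lay above and 2 below 0. Of these, Nr4a1, a nuclear receptor gene repressed through MEF2 in thymocytes, differed by 0.34 (SE 0.27). The other HDACs and the NCoR complex had 7 of 12 members below 0 and a median of -0.032, which was 0.017 without Vehicle replicate 4, with Gps2, an NCoR subunit, at -0.17. Myc differed by 0.026 (SE 0.14) and its partner Max by 0.0013 (SE 0.083).

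The 12 genes with the smallest p among those above 0 had main effects between 0.23 and 3.07 and unadjusted limma p between 0.00079 and 0.0024, none past the adjusted threshold. Of these, 6 lay above the counterpart mean in all 8 libraries, 8 separated TMP195 from Vehicle without overlap, and 2 separated Combo from MYCi975. Because they were taken for their small p, these counts describe the choice and are no further test. Abca1 (ENSMUSG00000015243.5), the cholesterol exporter of the cell surface, had values of 8.46, 7.84, 7.78 and 7.87 in the 4 TMP195 libraries against 7.27, 7.10, 7.49 and 7.54 in the 4 Vehicle libraries, and 7.34, 8.34, 7.66 and 7.77 in the 4 Combo libraries against 7.21, 7.09, 6.85 and 7.71 in the 4 MYCi975 libraries. All 8 libraries with TMP195 lay above their counterpart mean and the main effect was 0.60 (SE 0.15), with 0.64 and 0.57 without and with MYCi975. F13a1 (ENSMUSG00000039109.18), the coagulation factor XIII A chain made by monocytes and macrophages, had 8.06, 7.37, 6.85 and 7.69 in the 4 TMP195 libraries against 5.82, 6.25, 5.96 and 7.11 in the 4 Vehicle libraries, and 6.04, 6.76, 6.82 and 6.71 in the 4 Combo libraries against 6.31, 6.28, 5.66 and 6.03 in the 4 MYCi975 libraries. Both pairs of groups overlapped, and the main effect of 0.86 (SE 0.21) came from 1.21 and 0.51. The mean of 8 general leukocyte markers was 8.17, 7.27, 6.67 and 6.97 in the TMP195 libraries against 6.33, 6.42, 6.41 and 6.83 in the Vehicle libraries, and 6.24, 6.71, 6.19 and 6.47 in the Combo libraries against 6.53, 6.22, 7.31 and 6.68 in the MYCi975 libraries. It was highest in TMP195 replicate 1, which also held the highest values of Abca1 and F13a1, and the part of leukocyte RNA in these values was not tested.

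Pik3r1, the regulatory subunit p85 of PI3 kinase, had 12.38, 12.06, 12.45 and 12.71 in the 4 TMP195 libraries against 12.06, 12.08, 11.89 and 12 in the 4 Vehicle libraries, and 12.58, 13.09, 12.49 and 12.43 in the 4 Combo libraries against 12.46, 11.91, 12.26 and 12.31 in the 4 MYCi975 libraries. The differences were of similar size without and with MYCi975, at 0.39 and 0.41 (main effect 0.40, SE 0.11), although TMP195 replicate 2 lay inside the Vehicle range. Kdm7a, a demethylase of repressive histone marks, had 12.54, 12.38, 12.25 and 12.18 in the 4 TMP195 libraries against 11.89, 11.71, 11.97 and 11.67 in the 4 Vehicle libraries, and 12.52, 12.25, 11.99 and 12.24 in the 4 Combo libraries against 12.34, 11.61, 12.11 and 11.71 in the 4 MYCi975 libraries. The TMP195 and Vehicle groups did not overlap, the Combo and MYCi975 groups did, and the main effect was 0.42 (SE 0.11). Igsf10, an immunoglobulin superfamily gene, had the pattern the other way round, with Combo at 10.66, 10.85, 11.04 and 11.08 wholly above MYCi975 at 10.02, 9.99, 8.30 and 10.20, and overlap between TMP195 and Vehicle (main effect 0.93, SE 0.26). The remaining genes of this set were Ampd3, an AMP deaminase (0.69), Il2rb, the beta chain of the interleukin-2 receptor (0.42), the non-coding RNA gene Dubr (0.28), the cytoskeletal adaptor Pdlim4 (0.40), Wdr7 (0.23), Cd93, a receptor of myeloid and endothelial cells (0.55), and Rpl10a-ps1. Cd93 differed by 1 without MYCi975 and by 0.087 with it. Rpl10a-ps1 is a processed copy of a ribosomal protein gene, sat at the lowest value of 4.84 in 3 Vehicle, 3 MYCi975 and 1 Combo library, and its difference of 3.07 is uncertain because reads may be divided between near-identical copies.

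The 12 genes with the smallest p among those below 0 had main effects between -0.22 and -0.49 and unadjusted limma p between 0.0011 and 0.0033. None passed the adjusted threshold. In 11 of the 12, all 8 libraries with TMP195 lay below the counterpart mean, 5 separated TMP195 from Vehicle and 1 Combo from MYCi975. These genes too were taken for their small p, so the counts describe the choice and are no further test. Cks2 (ENSMUSG00000062248.6), the small subunit that binds cyclin-dependent kinases, had 8.11, 7.99, 8.35 and 8.45 in the 4 TMP195 libraries against 8.57, 8.83, 8.44 and 8.65 in the 4 Vehicle libraries, and 8.34, 7.90, 8.18 and 7.96 in the 4 Combo libraries against 8.35, 8.74, 8.32 and 8.48 in the 4 MYCi975 libraries. Both pairs of groups overlapped slightly and the main effect was -0.39 (SE 0.10), with -0.39 and -0.38 in the 2 pairs. Gemin5, the RNA-binding subunit of the SMN complex that assembles spliceosomal particles, had 11, 10.87, 11 and 10.92 in the 4 TMP195 libraries against 11.17, 11.20, 11.20 and 11.35 in the 4 Vehicle libraries, and 11.02, 11.09, 10.98 and 10.95 in the 4 Combo libraries against 11.13, 11.45, 11.04 and 11.28 in the 4 MYCi975 libraries. TMP195 lay wholly below Vehicle, and 1 MYCi975 library, replicate 3, lay within the Combo range (main effect -0.25, SE 0.065).

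Nfya, the DNA-binding subunit of the CCAAT-binding factor NF-Y, had 10.15, 10.59, 10.62 and 10.72 in the 4 TMP195 libraries against 10.70, 10.96, 10.93 and 10.94 in the 4 Vehicle libraries, and 10.57, 10.87, 10.86 and 10.78 in the 4 Combo libraries against 10.76, 11.02, 11.25 and 11.23 in the 4 MYCi975 libraries. All 8 libraries with TMP195 lay below their counterpart mean, Vehicle replicate 1 and MYCi975 replicate 1 lay within the range of their counterparts given TMP195, and the main effect was -0.33 (SE 0.093). Rab7, the small GTPase of late endosomes, differed by -0.28 (SE 0.075), and its TMP195 libraries, 11.60, 11.86, 11.99 and 11.73, lay below its Vehicle libraries, 12.18, 12.12, 12.24 and 12.03. Ddx21, a helicase of ribosomal RNA processing, differed by -0.22 (SE 0.062), Faap24 of the Fanconi anaemia core complex by -0.33 and Cbx2 of Polycomb repressive complex 1 by -0.31. The rest were Ahcyl2 (-0.40), the transfer RNA hydroxylase Tyw5 (-0.34), cyclophilin A, Ppia (-0.27), Ogfrl1 (-0.44) and the histone gene Hist1h2bb (-0.49). Ppia has many near-identical copies in the genome, so its value is uncertain.

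**Figure D3:**
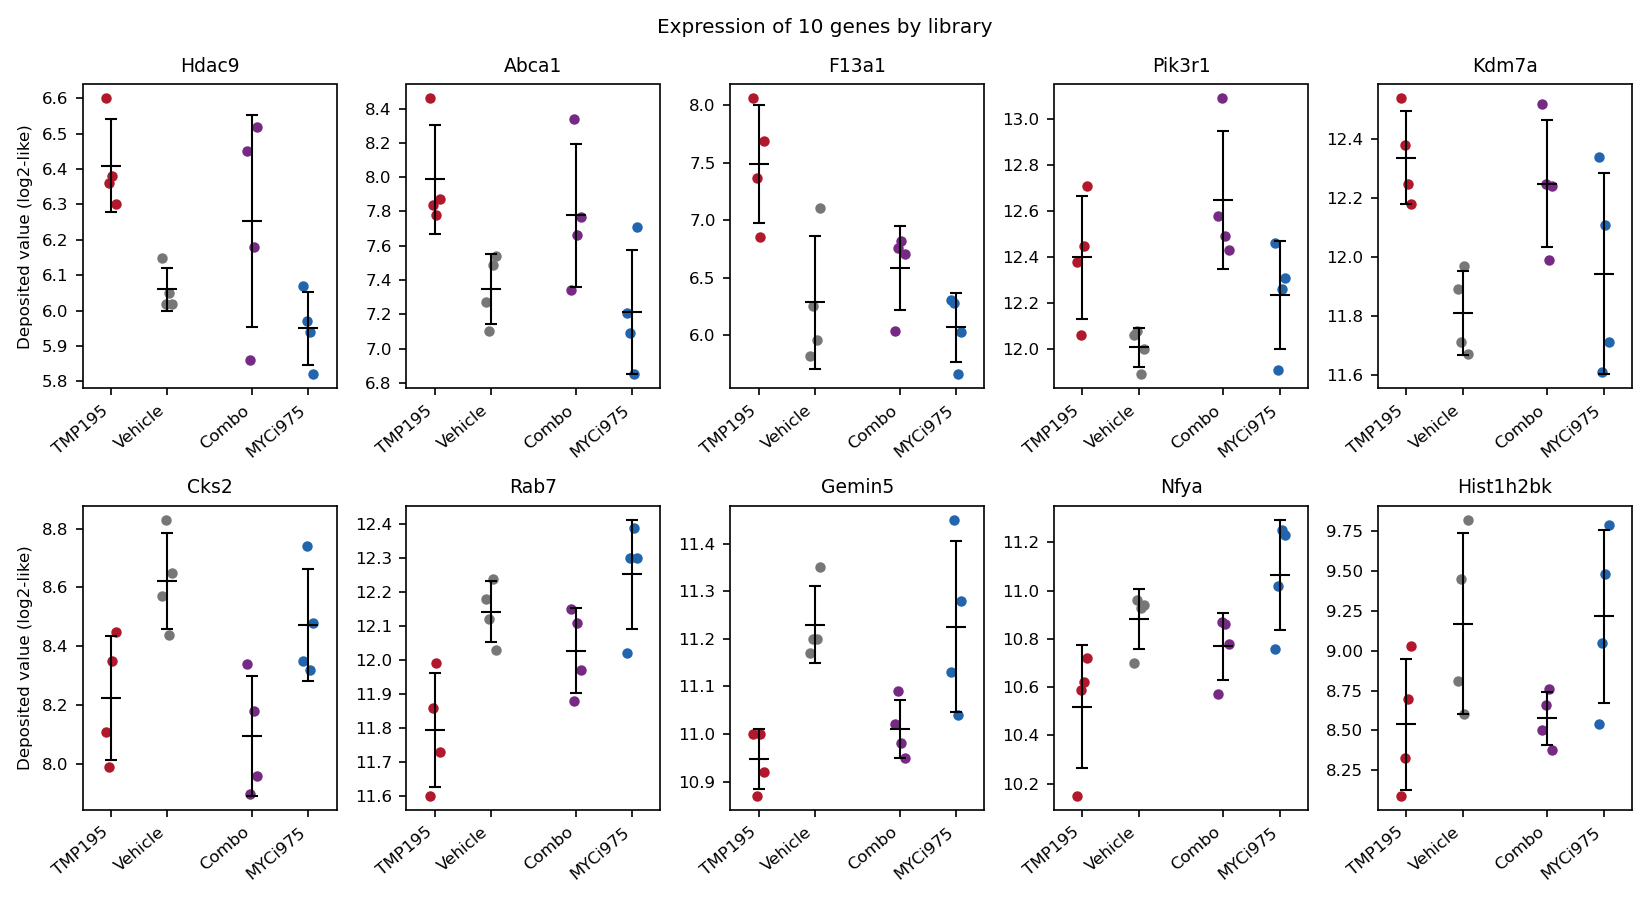
Deposited log2-like value (vertical axes, each on its own range) of 10 genes in each library; TMP195 is drawn left of Vehicle and Combo left of MYCi975, with the mean as a bar and the SD as whiskers (n = 4 libraries). Hdac9, Abca1 and Kdm7a in the upper row separate TMP195 from Vehicle, and Gemin5 and Rab7 in the lower row do so in the other direction, while 1 or more libraries overlap between Combo and MYCi975 in each of these 5.

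Replication-dependent histone genes, which are switched on in S phase, lay lower in the libraries with TMP195. Of 60 tested members (67 in the table), 55 lay below 0, with a median of -0.26 against -0.0041 over all genes, and 13 had an unadjusted limma p under 0.05 below 0 against 2.50% of all genes. The median was -0.36 without MYCi975 and -0.19 with it. Leaving out single libraries gave medians from -0.30 without Vehicle replicate 3 to -0.19 without TMP195 replicate 1. The mean of the list was 7.85, 8.13, 8.42 and 8.58 in the TMP195 libraries against 8.50, 8.77, 8.27 and 8.78 in the Vehicle libraries, and 8.37, 8.19, 8.41 and 8.43 in the Combo libraries against 8.30, 8.43, 8.65 and 8.72 in the MYCi975 libraries. The groups of each pair overlapped. Histone genes of a class are near-identical copies, so reads may be divided between them and single members are uncertain.

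Hist1h2bk (ENSMUSG00000062727.5), a histone H2B gene, had 8.09, 8.33, 8.70 and 9.03 in the 4 TMP195 libraries against 8.81, 9.45, 8.60 and 9.82 in the 4 Vehicle libraries, and 8.50, 8.66, 8.76 and 8.38 in the 4 Combo libraries against 8.54, 9.05, 9.48 and 9.79 in the 4 MYCi975 libraries. Its main effect was -0.64 (SE 0.19), all 8 libraries lay below the counterpart mean, and the Vehicle and MYCi975 libraries were the more scattered. Hist1h2bb had 7.82, 8.18, 8.48 and 8.86 in the 4 TMP195 libraries against 8.75, 9.03, 8.57 and 9.31 in the 4 Vehicle libraries, and 8.38, 8.50, 8.42 and 8.45 in the 4 Combo libraries against 8.60, 8.72, 9.05 and 8.97 in the 4 MYCi975 libraries, with no overlap between Combo and MYCi975 and a main effect of -0.49 (SE 0.14). Hist1h2bn differed by -0.58 (SE 0.24). Hist2h3c1, a histone H3 gene, differed by -0.61 (SE 0.34) but was listed at the lowest value, 4.84, in all 4 TMP195 libraries, 1 Vehicle, 3 Combo and 3 MYCi975 libraries. Members named from a list, here and below, were taken for a large main effect in the direction of its median or for a small p. Their counts of libraries on 1 side of the counterpart mean therefore describe that choice and are no further test.

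The upstream sequences of these 3 H2B genes are shown because H2B promoters are known for CCAAT boxes, the letters bound by NF-Y. Each is the 220 bases before the RefSeq gene start in GRCm38.p6, on the strand of the gene, at chr13:23746514-23746733, chr13:22035601-22035820 and chr13:21753856-21754075, all on the plus strand, and capitals mark CCAAT or its reverse complement ATTGG.
Hist1h2bb: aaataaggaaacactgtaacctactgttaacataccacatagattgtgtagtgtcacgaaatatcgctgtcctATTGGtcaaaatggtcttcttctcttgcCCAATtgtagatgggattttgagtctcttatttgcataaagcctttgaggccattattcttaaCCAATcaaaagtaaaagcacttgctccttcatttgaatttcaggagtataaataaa
Hist1h2bk: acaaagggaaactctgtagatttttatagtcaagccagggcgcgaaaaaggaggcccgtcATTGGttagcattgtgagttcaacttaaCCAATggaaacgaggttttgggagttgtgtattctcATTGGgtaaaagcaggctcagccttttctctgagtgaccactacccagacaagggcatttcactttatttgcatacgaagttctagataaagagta
Hist1h2bn: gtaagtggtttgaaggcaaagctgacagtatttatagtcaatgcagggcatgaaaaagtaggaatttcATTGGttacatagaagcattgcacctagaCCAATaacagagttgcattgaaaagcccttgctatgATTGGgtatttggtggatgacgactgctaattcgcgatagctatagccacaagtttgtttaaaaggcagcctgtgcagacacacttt
Each holds 3 matches, at 147, 119 and 56 bases before the start in Hist1h2bb, at 160, 132 and 96 in Hist1h2bk, and at 152, 123 and 87 in Hist1h2bn. On either strand of the 250 bases before the start, CCAAT was found in 34.5% of 27025 promoters of the RefSeq table and in 14 of the 14 H2B promoters that could be matched, of 17 H2B genes tested. Over all histone genes it was found in 43 of 53 matched promoters (81.1%). A match of these letters is a description of the sequence only, and a link between Nfya and the histone values was not tested.

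Genes of DNA replication and mitosis lay below 0 nearly throughout, with small medians. Of 45 tested DNA replication genes, 42 lay below 0 with a median of -0.12, and of 38 mitosis genes 37 with a median of -0.11. At an unadjusted limma p under 0.05 there were 4 and 3 of them, against 2.50% of all genes. The 2 pairs of groups were unlike for these lists. For mitosis the median was -0.23 without MYCi975 and -0.005 with it, and for DNA replication -0.19 and -0.049. The main-effect median of DNA replication was -0.069 without Vehicle replicate 4. Under median centring of the libraries it was -0.086, and that of mitosis was -0.076. Cdt1, which loads the replicative helicase at origins, lay below its counterpart mean in 8 of 8 libraries, with 9.58, 9.73, 10.11 and 9.84 in the 4 TMP195 libraries against 9.88, 10.18, 9.96 and 10.50 in the 4 Vehicle libraries, and 9.67, 9.90, 9.96 and 9.88 in the 4 Combo libraries against 9.59, 10.39, 10.15 and 10.16 in the 4 MYCi975 libraries (main effect -0.27, SE 0.12). E2f2, a transcription factor of S-phase genes, differed by -0.40 (SE 0.17), and Ccne1, the cyclin of S-phase entry, by -0.24, which was -0.45 without and -0.037 with MYCi975. Ska3, of the complex that couples kinetochores to microtubules, differed by -0.30 (SE 0.11, 8 of 8 below), the mitotic kinase Aurkb by -0.23 and the activator of the anaphase complex Cdc20 by -0.22.

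MYC target genes and genes of ribosome production were among the lists in which both pairs of groups gave medians below 0. Of 56 tested MYC target genes 51 lay below 0 with a median of -0.12, -0.14 without and -0.085 with MYCi975, and 7 had an unadjusted limma p under 0.05 below 0 against 2.50% of all genes. The mean of the list was 10.52, 10.50, 10.52 and 10.48 in the TMP195 libraries against 10.63, 10.66, 10.61 and 10.68 in the Vehicle libraries, and 10.56, 10.38, 10.46 and 10.50 in the Combo libraries against 10.48, 10.67, 10.52 and 10.57 in the MYCi975 libraries. TMP195 lay wholly below Vehicle, and Combo overlapped MYCi975. Leaving out single libraries gave medians from -0.14 without MYCi975 replicate 1 to -0.10 without TMP195 replicate 4. Supv3l1, a mitochondrial RNA helicase, lay below its counterpart mean in 8 of 8 libraries (-0.25, SE 0.086), Tmem97, a sterol-responsive membrane protein, in 6 of 8 (-0.28, SE 0.095), and the mitochondrial chaperonin Hspe1 differed by -0.26. The Myc transcript itself differed by 0.026.

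Of 46 ribosome biogenesis genes 42 lay below 0, with a median of -0.10, -0.090 without and -0.13 with MYCi975, and 8 had an unadjusted limma p under 0.05 below 0 against 2.50% of all genes. Ddx21, in this list and among the 12 with the smallest p, had 12.69, 12.60, 12.64 and 12.78 in the 4 TMP195 libraries against 12.77, 12.85, 12.84 and 12.94 in the 4 Vehicle libraries, and 12.62, 12.56, 12.35 and 12.48 in the 4 Combo libraries against 12.61, 12.86, 12.82 and 12.77 in the 4 MYCi975 libraries. Dkc1, the pseudouridine synthase of small nucleolar particles, differed by -0.26 (SE 0.11) and Nol8 by -0.21 (SE 0.10). Of 80 genes of cytosolic ribosomal proteins 69 lay below 0, with a median of -0.11 and 10 at an unadjusted limma p under 0.05 below 0 against 2.50% of all genes, and the median was -0.064 without Vehicle replicate 4. Their processed copies make single values uncertain, and Rpl35 differed by -0.50, with Combo at 12.79, 13.04, 13.15 and 12.90 and MYCi975 at 13.49, 13.15, 14.42 and 14.19, replicates 3 and 4 of which stood high.

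Nuclear genes of the mitochondrion followed the same direction at a smaller size. Of 78 genes of mitochondrial ribosomal proteins 69 lay below 0, with a median of -0.082 (-0.13 without and -0.043 with MYCi975) and 6 at an unadjusted limma p under 0.05 below 0 against 2.50% of all genes. Mrpl57, of the large subunit, lay below its counterpart mean in 8 of 8 libraries with 7.71, 8.04, 7.82 and 7.64 in the 4 TMP195 libraries against 8.18, 8.31, 8.12 and 8.27 in the 4 Vehicle libraries, and 8.03, 7.72, 7.97 and 7.54 in the 4 Combo libraries against 7.75, 8.03, 8.22 and 8.67 in the 4 MYCi975 libraries (main effect -0.38, SE 0.12). Of 29 import genes 24 lay below 0 with a median of -0.087, and members ran from -0.36 to 0.39. At an unadjusted limma p under 0.05 there were 4 import genes below 0 and 1 above, against 2.50% and 1.88% of all genes. Of 37 complex I genes 26 lay below 0 with a median of -0.075, of 23 complex IV genes 18 with -0.068 and of 15 ATP synthase genes 10 with -0.065. The last 3 rested in part on single libraries: complex I was -0.037 without Vehicle replicate 4, complex IV -0.033 without TMP195 replicate 4 and -0.10 without Combo replicate 1, and ATP synthase -0.019 without Combo replicate 2, -0.035 without Vehicle replicate 4, -0.038 without TMP195 replicate 2 and -0.10 without Combo replicate 1. ATP synthase was -0.014 under a stricter filter, which asks for values at least 2 above the lowest in at least 8 libraries. Without all libraries numbered 4, complex I was -0.027, complex IV -0.029 and ATP synthase -0.012, while mitochondrial ribosomal proteins were -0.067 and import -0.062. Median centring of the libraries gave -0.052 for mitochondrial ribosomal proteins, -0.057 for import, -0.044 for complex I, -0.037 for complex IV and -0.034 for ATP synthase. Chchd4, which oxidises proteins entering the intermembrane space, lay below in 8 of 8 libraries (-0.21, SE 0.087), as did Ndufb9 of complex I (-0.21), Cox7a2 of complex IV (-0.21), its copper chaperone Sco2 (-0.23) and Idh3g of the tricarboxylic acid cycle (-0.24). These genes were taken from their lists for large differences below 0, so the counts of libraries follow largely from the choice. Cycs, the electron carrier cytochrome c, differed by -0.23 (SE 0.084). The tricarboxylic acid cycle and complexes II and III had medians of -0.028 and -0.029, whose sign turned under median centring and without TMP195 replicate 4.

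The 13 transcripts of the mitochondrial genome had a median of -0.18, with 11 below 0 and none at an unadjusted limma p under 0.05. The median was -0.088 without and -0.34 with MYCi975, and from -0.28 without Vehicle replicate 4 to -0.089 without MYCi975 replicate 3. For mt-Atp6, an ATP synthase subunit, the values were 13.91, 12.87, 12.59 and 13.73 in the 4 TMP195 libraries against 13.34, 13.29, 13.68 and 13.50 in the 4 Vehicle libraries, and 13.48, 13.09, 12.22 and 12.39 in the 4 Combo libraries against 13.57, 13.03, 14.31 and 13.32 in the 4 MYCi975 libraries. Combo replicates 3 and 4 were low, MYCi975 replicate 3 was high, and the main effect was -0.47 (SE 0.23).

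Interferon response genes had the most negative median of the lists with at least 5 tested members. Of 48 tested members 47 lay below 0 with a median of -0.33, and 9 had an unadjusted limma p under 0.05 against 2.50% of all genes. The median was -0.21 without MYCi975, and with it -0.48 with all 48 members below 0. The mean of the list was 9.34, 8.77, 8.93 and 8.45 in the TMP195 libraries against 8.82, 9.35, 8.58 and 9.57 in the Vehicle libraries, and 8.86, 9.01, 8.99 and 8.52 in the Combo libraries against 8.95, 8.88, 9.93 and 9.41 in the MYCi975 libraries. The groups of each pair overlapped, and MYCi975 replicate 3, Vehicle replicate 4 and TMP195 replicate 4 lay at the ends of their groups. Medians ran from -0.45 without Vehicle replicate 3 to -0.22 without MYCi975 replicate 3, and -0.092 without all libraries numbered 4. Array weights gave -0.21.

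Ifit1 (ENSMUSG00000034459.9), which binds the caps of viral RNA, had 10.12, 9.11, 9.71 and 9.20 in the 4 TMP195 libraries against 9.64, 10.82, 9.14 and 10.68 in the 4 Vehicle libraries, and 10.09, 9.63, 10.33 and 9.55 in the 4 Combo libraries against 9.84, 10.36, 12.08 and 10.53 in the 4 MYCi975 libraries. The main effect was -0.67 (SE 0.29), 7 of 8 libraries lay below the counterpart mean, and MYCi975 replicate 3 stood highest. Cxcl10, a chemokine that draws T cells, differed by -0.58 (SE 0.37) and Gbp2, a guanylate-binding GTPase, by -0.55 (SE 0.37), and for both TMP195 replicate 4 and Combo replicate 4 were the lowest of their groups. The upstream sequences of these 3 genes are shown because interferon-stimulated genes are known for a response element with the core GAAANNGAA. Each is the 220 bases before the RefSeq gene start in GRCm38.p6 on the strand of the gene, at chr19:34640669-34640888 (plus strand), chr5:92348890-92349109 (minus strand) and chr3:142620443-142620662 (plus strand), and capitals mark the core on either strand.
Ifit1: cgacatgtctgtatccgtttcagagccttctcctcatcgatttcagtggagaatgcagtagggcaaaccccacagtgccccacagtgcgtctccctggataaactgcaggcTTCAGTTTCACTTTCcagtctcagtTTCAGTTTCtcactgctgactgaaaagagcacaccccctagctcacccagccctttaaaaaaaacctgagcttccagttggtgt
Cxcl10: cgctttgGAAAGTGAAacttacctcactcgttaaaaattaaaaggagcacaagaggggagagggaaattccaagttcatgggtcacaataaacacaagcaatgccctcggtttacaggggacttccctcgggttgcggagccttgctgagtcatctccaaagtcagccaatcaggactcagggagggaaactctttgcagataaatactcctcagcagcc
Gbp2: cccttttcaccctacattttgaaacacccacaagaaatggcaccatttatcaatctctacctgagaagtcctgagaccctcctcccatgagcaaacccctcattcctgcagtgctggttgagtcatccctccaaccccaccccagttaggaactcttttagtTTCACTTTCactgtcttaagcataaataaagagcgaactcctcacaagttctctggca
Ifit1 holds 3 matches, at 109, 103 and 84 bases before the start, of which the first pair overlap. Cxcl10 holds 1 at 213 bases and Gbp2 holds 1 at 58 bases. In the 250 bases before the start the core was found in 7.16% of 27025 promoters and in 19 of the 36 matched interferon response genes (52.8%), of 48 tested. As before, a match describes the sequence and not binding.

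Genes of MHC class I presentation followed the interferon list. All 20 tested members lay below 0 with a median of -0.24, -0.17 without and -0.40 with MYCi975, and 1 of 20 had an unadjusted limma p under 0.05 below 0, near the 2.50% of all genes. The mean of the list was 9.96 in TMP195 replicate 4, against 10.59 to 11.07 in the other 3 TMP195 libraries, and 11.27 in Vehicle replicate 4, against 10.38 to 10.85 in the other 3 Vehicle libraries. The median was -0.13 without TMP195 replicate 4 and -0.13 with array weights. Without all libraries numbered 4 it was 0.039, above 0, so the direction of this list rested on those libraries. Tapbpl, a peptide editor of class I molecules, lay below its counterpart mean in 8 of 8 libraries with 8.97, 8.61, 8.74 and 8.45 in the 4 TMP195 libraries against 8.67, 9.08, 8.64 and 9.67 in the 4 Vehicle libraries, and 8.55, 8.75, 8.71 and 8.46 in the 4 Combo libraries against 8.79, 8.96, 9.25 and 9.17 in the 4 MYCi975 libraries (main effect -0.37, SE 0.13). Nlrc5, the transactivator of class I genes, differed by -0.51 (SE 0.26) and H2-K1, a classical class I gene with near-identical relatives, by -0.34 (SE 0.22). The immunoproteasome subunit genes Psmb8, Psmb9 and Psmb10 differed by -0.34, -0.23 and -0.34, and the checkpoint ligand gene Cd274 by -0.29 (SE 0.23). The list of checkpoint ligands ran from -0.31 to 0.63, with 6 of 11 tested members below 0.

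Lists above 0 were fewer and most were unlike between the 2 pairs of groups. Of 24 hypoxia response genes 18 lay above 0 with a median of 0.10, which was 0.23 without MYCi975 and -0.053 with it. It was 0.051 without Vehicle replicate 4, 0.055 without Vehicle replicate 2, 0.057 without TMP195 replicate 2 and 0.060 without TMP195 replicate 3. Car9, a carbonic anhydrase of low oxygen, had 7.75, 7.85, 7.52 and 7.88 in the 4 TMP195 libraries, above 7.09, 6.34, 7.18 and 6.69 in the 4 Vehicle libraries without overlap, and 6.72, 7, 6.46 and 6.92 in the 4 Combo libraries, among 6.98, 6.37, 6.93 and 7.23 in the 4 MYCi975 libraries. Ankrd37, another HIF target, lay above its counterpart mean in 8 of 8 libraries (0.36, SE 0.12). NRF2 and antioxidant genes had 19 of 26 members above 0 and a median of 0.071, with 0.046 and 0.10 in the 2 pairs. It was 0.034 without Combo replicate 1, 0.037 without Vehicle replicate 3, 0.040 without MYCi975 replicate 3 and 0.11 without TMP195 replicate 4. Of the NRF2 genes, Hmox1, haem oxygenase, differed by 0.35 (SE 0.22) and the cystine transporter Slc7a11 by 0.33 (SE 0.19). Adamts1, a secreted protease of the matrix, differed by 0.72 (SE 0.26), 0.67 without and 0.78 with MYCi975, and lay above in 7 of 8 libraries. The list of matrix proteases and inhibitors had 16 of 25 members above 0 and a median of 0.050, from -0.010 without MYCi975 replicate 3 to 0.10 without TMP195 replicate 4 over single libraries left out.

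Cholesterol synthesis had 20 of 23 members below 0 with a median of -0.10, which was -0.24 without MYCi975 and 0.040 with it. The median was -0.16 without Vehicle replicate 3 and -0.064 without Vehicle replicate 4. Of the cholesterol genes, Cyp51, a sterol demethylase, differed by -0.43 and 0.024 in the 2 pairs. Purine and pyrimidine synthesis had 18 of 24 below 0 with a median of -0.10, -0.14 without and -0.047 with MYCi975. The integrated stress response had 19 of 28 below 0 with a median of -0.085, -0.13 without and -0.027 with MYCi975, and it was -0.027 without Vehicle replicate 2 and -0.13 without Vehicle replicate 1. Of the stress genes, Atf3, a factor induced by many stresses, differed by -0.55 (SE 0.23, 7 of 8 below), and the tryptophanyl transfer RNA synthetase Wars by -0.27 (SE 0.092, 8 of 8 below). Medians nearer to that of all genes were those of the following lists, and each moved by more than 1.5 times, or changed sign, without 1 or more single libraries. Glycolysis had 15 of 21 above 0 (0.045), collagens and matrix 15 of 26 above 0 (0.071), p53 target genes 12 of 21 above 0 (0.012), lysosome and autophagy 15 of 29 above 0 (0.008), AP-1 and immediate early genes 15 of 25 below 0 (-0.068), the proteasome 26 of 38 below 0 (-0.054) and the unfolded protein response 15 of 21 below 0 (-0.033). Mitochondrial biogenesis and dynamics had 15 of 21 below 0 (-0.043), fatty acid synthesis 9 of 16 below 0 (-0.014), the epithelial and mesenchymal state 9 of 17 below 0 (-0.006) and immune checkpoint ligands 6 of 11 below 0 (-0.028), and the last 3 medians turned sign under median centring of the libraries. AP-1 and immediate early genes ran from -0.55 to 0.90. At an unadjusted limma p under 0.05 were 2 of these 25 above 0 and 1 below, against 1.88% and 2.50% of all genes. Over single libraries left out, the medians ran from 0.008 without MYCi975 replicate 3 to 0.080 without TMP195 replicate 1 for glycolysis, from -0.027 without MYCi975 replicate 3 to 0.11 without MYCi975 replicate 4 for collagens and matrix, from -0.091 without Combo replicate 4 to -0.024 without TMP195 replicate 4 for AP-1 and immediate early genes and from -0.076 without Vehicle replicate 3 to -0.010 without Vehicle replicate 4 for the proteasome.

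**Figure D4:**
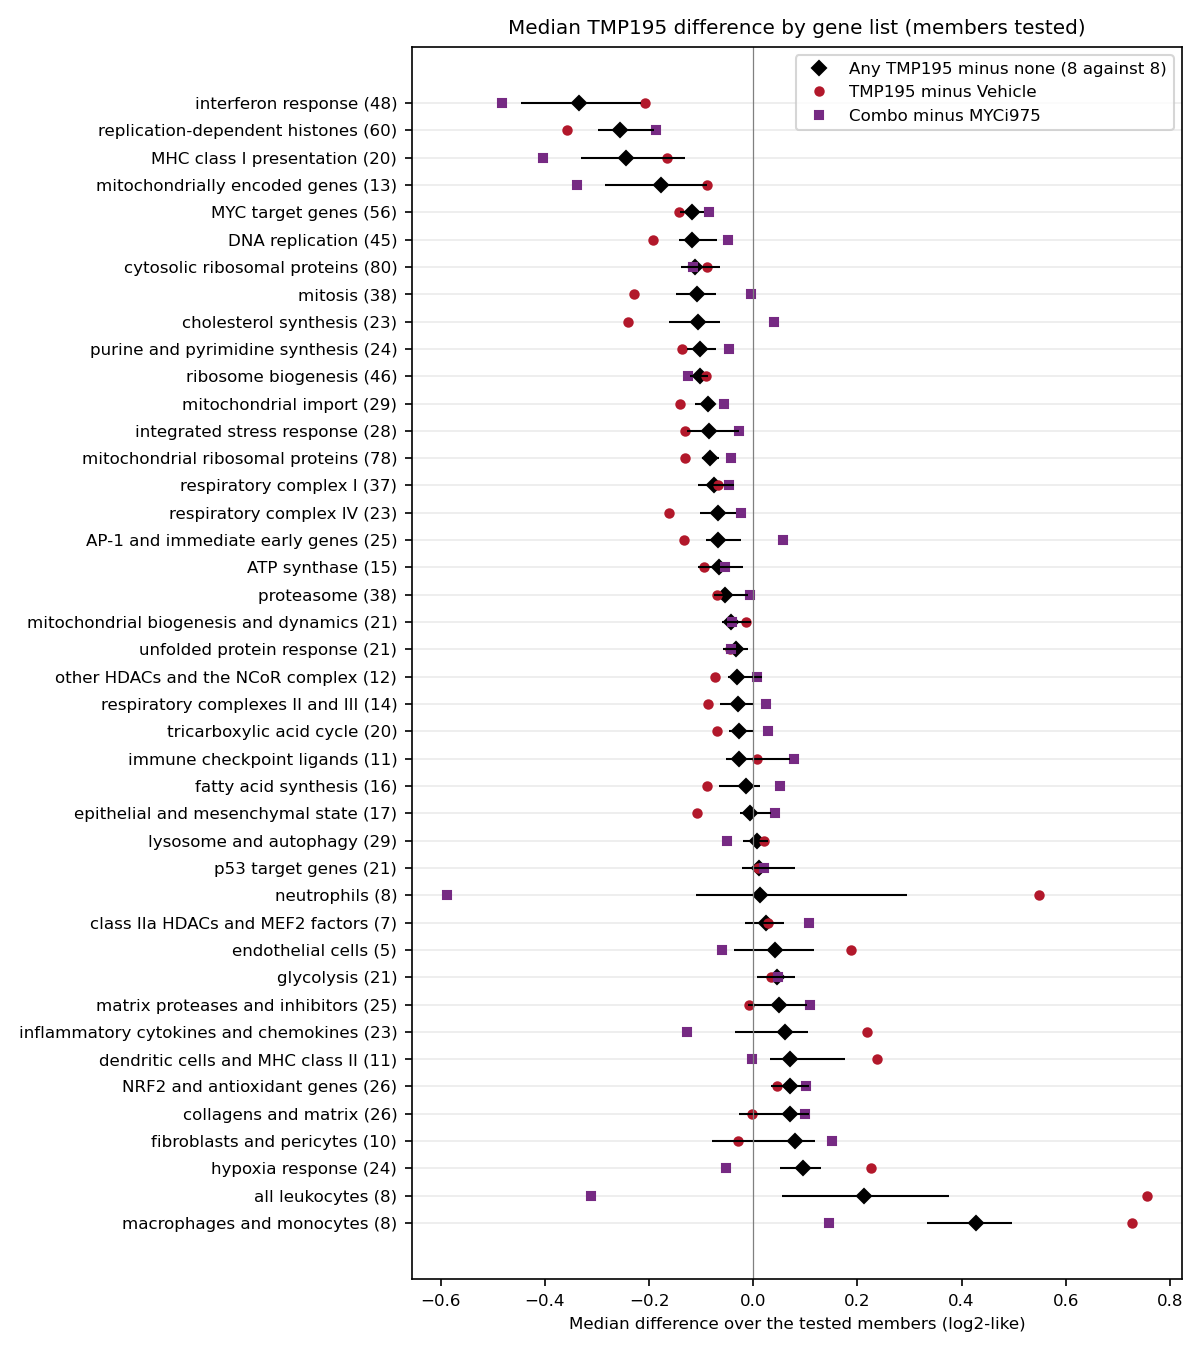
Median difference over the tested members of each gene list with at least 5 of them (horizontal axis, log2-like), with the number of tested members in brackets; black diamonds give any TMP195 minus none, with a line over the values obtained when each library was left out in turn, red circles TMP195 minus Vehicle and purple squares Combo minus MYCi975. The interferon response lies lowest at -0.33 and macrophages and monocytes highest at 0.43, and the circle and square lie on opposite sides of 0 for leukocytes and neutrophils.

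Macrophage and monocyte markers had the most positive median of the lists with at least 5 tested members, and their values are given because the enriched tumour population still held leukocyte transcripts. The table held 14 of the listed markers, of which 8 passed the filter, and 7 of these lay above 0 with a median of 0.43, with 5 at an unadjusted limma p under 0.05 above 0 against 1.88% of all genes. Csf1r passed the filter only through libraries with TMP195, so that it had to differ, and the count and median are given as a description and support nothing. The median was 0.27 under the stricter filter and 0.34 over all 14 markers with no filter. The markers Adgre1, C1qa, C1qb and C1qc, which define tissue macrophages, were among the 6 under the filter. The mean of the list was 8.04, 7.41, 6.59 and 7.24 in the TMP195 libraries against 6.31, 6.44, 6.32 and 6.91 in the Vehicle libraries, and 6.31, 6.68, 6.33 and 6.50 in the Combo libraries against 6.35, 6.18, 6.71 and 6.41 in the MYCi975 libraries. TMP195 replicates 1, 2 and 4 lay above every other library, whereas Combo and MYCi975 overlapped, and the median difference was 0.73 without and 0.14 with MYCi975. No marker of the list was at the lowest value in all 16 libraries. Summed above the lowest value over the 14 markers, the list ran between 16.3 and 32.3 over the TMP195 libraries, against 12.3 and 20.9 over the Vehicle libraries, and between 13.5 and 19.7 over the Combo libraries, against 12.1 and 17.4 over the MYCi975 libraries.

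Ccr2, the chemokine receptor of inflammatory monocytes, had 8.04, 7.32, 5.98 and 7.32 in the 4 TMP195 libraries against 5.61, 5.84, 5.78 and 6.38 in the 4 Vehicle libraries, and 5.87, 6.15, 5.83 and 6.03 in the 4 Combo libraries against 5.65, 5.52, 6.37 and 5.78 in the 4 MYCi975 libraries. All 8 libraries with TMP195 lay above the counterpart mean and the main effect was 0.70 (SE 0.25), although TMP195 replicate 3 lay within the Vehicle range and MYCi975 replicate 3 above every Combo library. Csf1r, the receptor for the macrophage growth factor, had 7.54, 7.07, 5.40 and 6.75 in the 4 TMP195 libraries against 5.57, 5.39, 5.79 and 5.34 in the 4 Vehicle libraries, and 5.43, 5.87, 5.84 and 5.85 in the 4 Combo libraries against 5.46, 5.75, 5.67 and 5.50 in the 4 MYCi975 libraries. TMP195 replicate 3 was at the level of Vehicle and the other 3 TMP195 libraries were above it (main effect 0.66, SE 0.24). The 5 libraries that carried Csf1r past the filter were all among the 8 with TMP195. Lyz2, lysozyme of myeloid cells, differed by 0.92 (SE 0.36), 1.70 without and 0.15 with MYCi975. Among the MHC class II genes, H2-Eb1 differed by 0.52 (SE 0.18) and H2-Ab1 by 0.48 (SE 0.24). H2-Eb1, like Csf1r, passed the filter through 5 libraries, all with TMP195, and its difference supports nothing. The list of dendritic cells and MHC class II had 9 of 11 members above 0 with a median of 0.070, 0.027 under the stricter filter and from 0.033 without MYCi975 replicate 2 to 0.18 without MYCi975 replicate 4 over single libraries left out.

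General leukocyte and neutrophil markers differed in sign between the pairs. All 8 tested leukocyte markers lay above 0 with a median of 0.21, made of 0.76 without and -0.31 with MYCi975, and it was 0.055 without TMP195 replicate 1, 0.14 without Vehicle replicate 3 and 0.38 without MYCi975 replicate 3. Ptprc had 8.95, 8.19, 7.30 and 7.77 in the 4 TMP195 libraries against 6.66, 7.10, 6.39 and 7.52 in the 4 Vehicle libraries, and 6.64, 7.06, 5.81 and 7.10 in the 4 Combo libraries against 6.55, 5.87, 8.04 and 7.16 in the 4 MYCi975 libraries, a difference of 1.13 without and -0.25 with MYCi975, and MYCi975 replicate 3 stood out in its group as TMP195 replicate 1 did in its own. Neutrophil markers had a median of 0.013, made of 0.55 and -0.59, and it ran from -0.11 without TMP195 replicate 1 to 0.29 without MYCi975 replicate 3. The inflammatory chemokine Cxcl3 differed by 1.45 and -0.17 in the 2 pairs, and the cytokine and chemokine list by medians of 0.22 and -0.13. Without TMP195 replicate 1 and MYCi975 replicate 3, the 2 libraries highest in leukocyte markers, the median main effect was 0.34 for macrophages and monocytes, -0.17 for histones, -0.27 for the interferon response and -0.12 for MYC target genes. With the leukocyte mean as a covariate it was 0.31, -0.22, -0.47 and -0.11 for the same 4 lists. Endothelial markers had a median of 0.042 over 5 tested members and fibroblast and pericyte markers 0.081 over 10, and without single libraries they ran from -0.036 without Vehicle replicate 1 to 0.12 without TMP195 replicate 3 and from -0.080 without MYCi975 replicate 3 to 0.12 without TMP195 replicate 1. T and NK cells, B and plasma cells, adipocytes and lung epithelium had 1 tested marker each, and mast cells and keratinocytes had 0. Erythroid markers, 3 tested, had a median of 0.23, skeletal muscle markers, also 3, -0.27, and 4 keratin-expressing carcinoma markers -0.002.

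**Figure D5:**
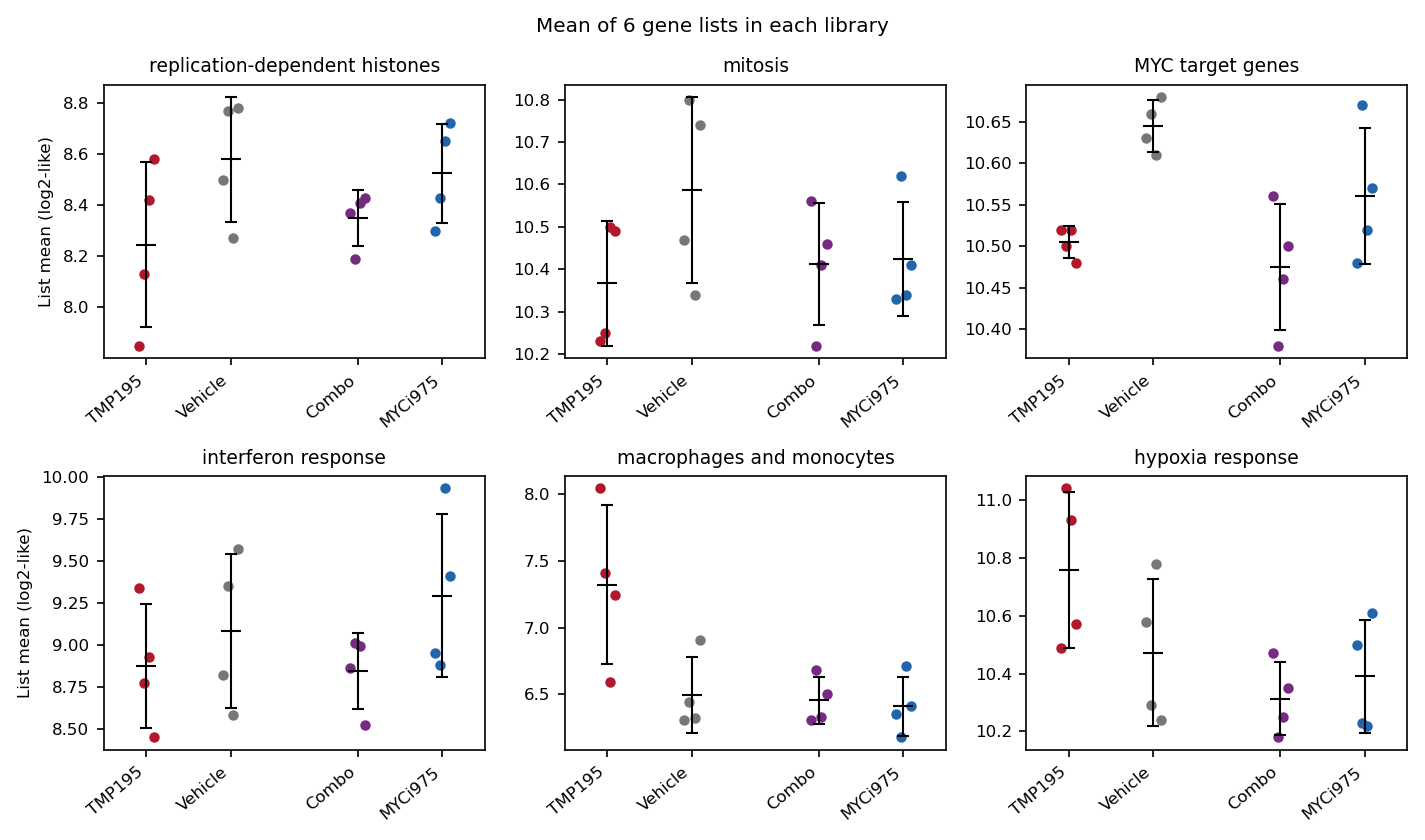
Mean of the tested members of 6 gene lists in each library (vertical axes, log2-like, each on its own range), with TMP195 left of Vehicle and Combo left of MYCi975, the group mean as a bar and the SD as whiskers (n = 4 libraries). MYC target genes separate TMP195, at 10.48 to 10.52, from Vehicle, at 10.61 to 10.68, and in the other panels, as between Combo and MYCi975 in all 6, the groups overlap.

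Whether the effect of TMP195 differed with MYCi975 was tested as the interaction, Combo minus MYCi975 minus TMP195 plus Vehicle. No gene was called by limma, the smallest adjusted p was 1 at 3 significant digits, 471 genes (3%) had an unadjusted p under 0.05, and the median SE was 0.223. The named genes with the smallest interaction p were Hoxc8, Ptpn5, Xylt1, Ccl6 and Cd93. Hoxc8, a homeobox gene, had 6.24, 6.32, 6.72 and 6.47 in the 4 TMP195 libraries against 7.16, 6.63, 6.74 and 7.10 in the 4 Vehicle libraries, and 6.95, 6.96, 7.72 and 7.11 in the 4 Combo libraries against 6.37, 6.31, 6.33 and 6.76 in the 4 MYCi975 libraries, an interaction of 1.22 (SE 0.26). Combo lay wholly above MYCi975, and TMP195 lay below Vehicle apart from TMP195 replicate 3, which lay within the Vehicle range. Ptpn5, a tyrosine phosphatase, had 6.39, 5.88, 5.86 and 5.53 in the 4 TMP195 libraries against 5.12, 5.11, 5.23 and 5.15 in the 4 Vehicle libraries, and 5.33, 4.84, 5.07 and 5.55 in the 4 Combo libraries against 5.86, 6.12, 5.21 and 5.64 in the 4 MYCi975 libraries, an interaction of -1.27 (SE 0.29). Xylt1, which starts proteoglycan chains, had an interaction of -1.29 (SE 0.30), the myeloid chemokine Ccl6 -1.49 (SE 0.39) and Cd93 -0.92 (SE 0.23). In these 4 the TMP195 libraries lay above Vehicle on average and Combo did not exceed MYCi975 by more than 0.087.

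Fitted in the same model, MYCi975 had no called gene for its own main effect, with 849 genes (5.4%) at an unadjusted limma p under 0.05 and a smallest adjusted p of 0.536. The count for TMP195 was 688 (4.38%), with the same median SE of 0.111 by construction of the balanced design. Whether the 2 compounds differed in the number of genes affected was not tested.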

How the data were processed

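Spin-column RNA was made into stranded total RNA libraries, per the labels' protocols. Per the submitters' processing notes, quantification used Salmon and the build was hg38, although samples and gene identifiers are mouse. Versions, annotation and the tool that stabilised the variance were not stated. The authors deposited 1 table of variance-stabilised values close to log2, 1 column per library, with a shared lowest value of 4.84. Variance stabilisation compresses differences of weak genes. The depth is unknown, and no interval that needs it was computed.

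Groups came from the labels. Symbols were matched for 23150 of 24334 identifiers (95.1%), and promoter sequences are from RefSeq (GRCm38.p6). Gene coordinates are not used here. Genes at least 1 above the lowest value in at least 4 libraries were tested, of which 21 passed only through libraries with TMP195 and 10 only through libraries without it. The main effect was fitted with limma 3.58.1 in R 4.3.3, with TMP195 given or not and MYCi975 given or not as terms, empirical Bayes moderation with an intensity trend, and two-sided p-values adjusted by Benjamini-Hochberg over 15715 genes. Calls were made under an adjusted p of 0.05. A model with 1 mean per group gave TMP195 minus Vehicle, Combo minus MYCi975 and the interaction. The procedure was tried on simulated data with noise drawn independently for each gene and library. That simulation held no structure shared between genes or libraries, so it cannot show how the procedure does on data with such structure.

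Named genes were the 12 with the smallest p in each direction leaving out predicted genes, the class IIa HDAC and MEF2 genes, Myc, Max and Ptprc, up to 3 members of each list with the largest main effect in the direction of its median, and the 5 with the smallest interaction p. The lists numbered 52, of which 37 were pathways and 15 cell types. The comparison, the members and the lists were chosen with earlier results of these data known. Lists are described by counts and medians, with no test. Members of a list are not independent of each other, so a count above or below 0 is not a count of independent observations. Alternatives were 2 filters, 2 moderation settings, quantile normalisation, median centring, array weights, a replicate block, a leukocyte covariate, another model, and leaving out libraries.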

Additional observations from a re-analysis of the deposited data

Results flagged for a closer look

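In 24 of 320 groups of 4 libraries, the gap of 1 library to the other 3, as a share of the range of the group, exceeded Dixon's 95% critical value, and chance gives about 1 in 20 groups. The cause was not tested for any of them. Among the genes above 0, F13a1 was low in Combo replicate 1 (6.04, nearest 6.71), as was Wdr7 (9.38, nearest 9.64). TMP195 replicate 1 was high for Abca1 (8.46, nearest 7.87), Il2rb (6.71, nearest 6.24) and Igsf10 (11.54, nearest 10.33). Igsf10 was also low in MYCi975 replicate 3 (8.30, nearest 9.99). Rpl10a-ps1 was above the lowest value of 4.84 in 1 MYCi975 library, replicate 1 (9.30), and in 1 Vehicle library, replicate 1 (7.66).

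Among the genes below 0, Nfya was low in Vehicle replicate 1 (10.70, nearest 10.93), Cbx2 in MYCi975 replicate 1 (7.67, nearest 8.10) and Ogfrl1 in MYCi975 replicate 2 (7.70, nearest 8.33). Mef2a was high in Combo replicate 2 (12, nearest 11.79) and Max low in Vehicle replicate 4 (10.40, nearest 10.69). Of the genes with a small interaction p, Hoxc8 was high in MYCi975 replicate 4 (6.76, nearest 6.37) and Ccl6 in Vehicle replicate 4 (6.62, nearest 5.84).

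The same was seen for means of gene lists. Ribosome biogenesis was high in TMP195 replicate 1 (10.56, nearest 10.47), immune checkpoint ligands low in TMP195 replicate 4 (8.33, nearest 8.96) and endothelial cells high in TMP195 replicate 4 (7.63, nearest 7.37). Cytosolic ribosomal proteins (12.23, nearest 12.36) and respiratory complex I (8.73, nearest 8.87) were low in Combo replicate 2. Respiratory complexes II and III were low in MYCi975 replicate 3 (9.83, nearest 10.02) and in Vehicle replicate 3 (9.91, nearest 10.09), in which fatty acid synthesis was low as well (11.01, nearest 11.17). All leukocytes were high in Vehicle replicate 4 (6.83, nearest 6.42).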

How the results depend on the processing

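The number of called genes for the TMP195 main effect was 0 under all 28 alternatives, with smallest limma adjusted p from 0.198, without MYCi975 replicate 1, to 1, and with 520 (stricter filter) to 1134 (no filter) genes at an unadjusted p under 0.05. For TMP195 minus Vehicle, leaving out single libraries gave 0 to 2 called genes, and the 2 were Csf1r (1.60, limma adjusted p = 0.003) and Ccr2 (1.65, limma adjusted p = 0.0182) without TMP195 replicate 3. For Combo minus MYCi975 the range was 0 to 1, the 1 being the predicted gene Gm15801 (-1.77, limma adjusted p = 0.0431) without MYCi975 replicate 2. Csf1r passed the filter only through libraries with TMP195. TMP195 replicate 3, whose removal gave the calls of Csf1r and Ccr2, held the lowest TMP195 value of both genes, so these 2 calls support nothing. All 3 genes were singled out after their values were seen, and the cause was not tested. The replicate block gave 0 called genes for the main effect, 922 at an unadjusted p under 0.05 and a smallest limma adjusted p of 0.427. The numbers were not taken to pair the libraries, because deviations of same-numbered libraries correlated above 0.1 in 6 of 6 pairs for numbers 1 and 4 but in 2 of 6 for number 2 and 1 of 6 for number 3, and no label says what a number marks. As a hint from the data, 9 of 16 libraries correlated best with their own number, and the 4 libraries numbered 1 were the 4 lowest on the first principal component, from -19.5 to -13.7.

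Genes followed under alternatives were the 12 with the smallest p in each direction. Added to them were the class IIa HDAC and MEF2 genes, Myc, Max and Ptprc. For the genes taken for their small p, a kept direction follows largely from the choice and is no support. Of all these values, 876 kept their direction and 36 reversed, all of genes near 0. Array weights gave -0.009 for Hdac4, -0.062 for Myc and -0.002 for Max. The leukocyte covariate gave -0.004 for Hdac5 and 0.032 for Mef2c. Without the 2 libraries highest in leukocyte markers, Hdac5 was -0.026, Mef2d 0.032 and Max -0.025. Mef2d was 0.003 under quantile normalisation and 0.014 under median centring, and Myc -0.051 without all libraries numbered 4. Leaving out single libraries gave -0.031 to 0.056 for Hdac4, -0.015 to 0.086 for Hdac5, -0.033 to 0.066 for Hdac7, -0.248 to 0.043 for Mef2c, -0.109 to 0.033 for Mef2d, -0.072 to 0.098 for Myc and -0.035 to 0.043 for Max. Of the list medians under alternatives, 1133 moved by no more than the SD of the list mean within groups. That of mitochondrial biogenesis and dynamics moved further, to -0.005 without Combo replicate 4. The SD exceeds many of the medians, so the count takes in changes of sign and says little about stability. Among lists with at least 5 tested members, medians that lay below 0 lay above it without all libraries numbered 4 for MHC class I presentation (0.039), immune checkpoint ligands (0.093), the epithelial and mesenchymal state (0.036), the unfolded protein response (0.017) and the proteasome (0.005). Without the 2 libraries highest in leukocyte markers, medians above 0 lay below it for collagens and matrix (-0.063), fibroblasts and pericytes (-0.041), p53 target genes (-0.018), matrix proteases and inhibitors (-0.009) and lysosome and autophagy (-0.008). Median centring moved the median of all genes from -0.0041 to 0.026, and quantile normalisation moved it to 0.00017. Under median centring the medians were -0.087 for MYC target genes, -0.073 for ribosome biogenesis and -0.054 for the integrated stress response. They were -0.081 for cytosolic ribosomal proteins and -0.073 for purine and pyrimidine synthesis under median centring. Lists above 0 rose with it, as the hypoxia response did to 0.13. Limits of these data are the unknown depth, the compressed differences of weak genes, and the median 95% interval of 0.233 to either side. That interval is unadjusted. It leaves smaller differences of single genes unresolved, and at the adjusted threshold larger ones were unresolved too.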
